A study of Mus musculus with 6 samples.

Results

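ATP-binding cassette (ABC) transporter genes were compared between hematopoietic progenitors of N1IC mice and of WT mice. The members were the measured genes whose symbol has the form Abca to Abcg followed by a number and, in some, a letter. They were 45 of the 18193 genes tested, each represented by its brightest probe set over the 6 arrays. The cells were lineage-negative, cKit-positive and Sca1-positive (LSK) bone marrow cells, a fraction that holds stem cells and early multipotent progenitors. The 3 N1IC mice carried Mx1-cre and a lox-stop-lox N1-IC allele, which yields the active intracellular part of Notch1 once Cre has removed the stop. The 3 WT mice carried Mx1-cre without that allele. Both groups received polyIC (20 mcg per g, 3 injections, starting at 21 days of age) and were taken 2 weeks after the last dose, at 5 weeks of age. PolyIC switches on Mx1-cre through interferon in many tissues, liver among them, so recombination is not limited to LSK cells in this model. The treatment protocol speaks of a floxed Ncstn allele and not of N1-IC, and the groups here follow the genotype labels. Whether the mice were littermates is not stated. By the labels all 3 N1IC mice were female, against 1 female (replicate 2) and 2 males among the WT mice, so sex is largely confounded with genotype.

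ABC proteins bind and split ATP, and most use the energy to move lipids, peptides, drugs or metabolites across a membrane. Subfamilies A and G hold many lipid transporters, B holds the P-glycoproteins, peptide carriers and mitochondrial carriers, C holds exporters of conjugated anions, and D works mainly in peroxisomes. Members of E and F have the ATP-binding domains without a membrane part and act on ribosomes. In bone marrow the family is best known for dye efflux: Abcg2 pumps out the dye Hoechst and so creates the side population in which stem cells are found, and the P-glycoproteins Abcb1a and Abcb1b export rhodamine.

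Values below are log2 probe set intensities. Signals of different probe sets cannot be compared as amounts of RNA, and no detection call was used here, so no gene is called absent. As a mark of how low a probe set reads when its gene is missing, 3 Y-linked genes lay between 2.87 and 3.55 on the 4 female arrays. Of the members, 4 stayed at or under that level on every array and 10 stayed at or under 5. Kit, which encodes a gate antigen, lay between 11.45 and 11.57 in N1IC and between 11.58 and 11.94 in WT. Cd3e, which encodes a T cell antigen that lineage gates usually include, lay between 11.38 and 11.81 in N1IC, against 5.41 to 8.17 in WT.

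N1IC cells had higher levels of a peptide carrier. An anion exporter was higher on its brightest probe set, while its 10 probe sets split into 5 positive and 5 negative. N1IC cells had lower levels of a stem cell efflux pump, a peroxisomal transporter and lipid transporters of subfamily A. Only the peptide carrier and the peroxisomal transporter passed the test below in every alternative fit that included them. A gene passed the test where its limma p, adjusted by Benjamini-Hochberg over all genes, was under 0.05. By that measure 7 of the 45 members differed, or 15.6%, against 11.8% of all genes tested. Abcb9 and Abcc5 were higher in N1IC, 4.44% of the members against 3.47% of all genes. Abcd2, Abcg2, Abca9, Abca5 and Abca2 were lower, 11.1% of the members against 8.31% of all genes. The family thus held calls at a share near that of the whole array. The median log2 fold change, N1IC mean minus WT mean, was -0.06 over the members and -0.01 over all genes. The groups did not overlap for 17 members, or 37.8%, against 32.8% of all genes. The N1IC arrays lay wholly above the WT arrays for 3 of them, or 6.67% of the members against 13.1% of all genes, and wholly below for 14, or 31.1% against 19.7%. With the arrays quantile normalized once more or centred on their medians, 2 members were higher and 3 lower, Abca5 and Abca2 having lost their calls. By subfamily, the calls comprised 3 of 14 members of A, 1 of 8 of B, 1 of 10 of C, 1 of 3 of D and 1 of 6 of G. Neither the 1 member of E nor the 3 of F passed.

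**Figure D1:**
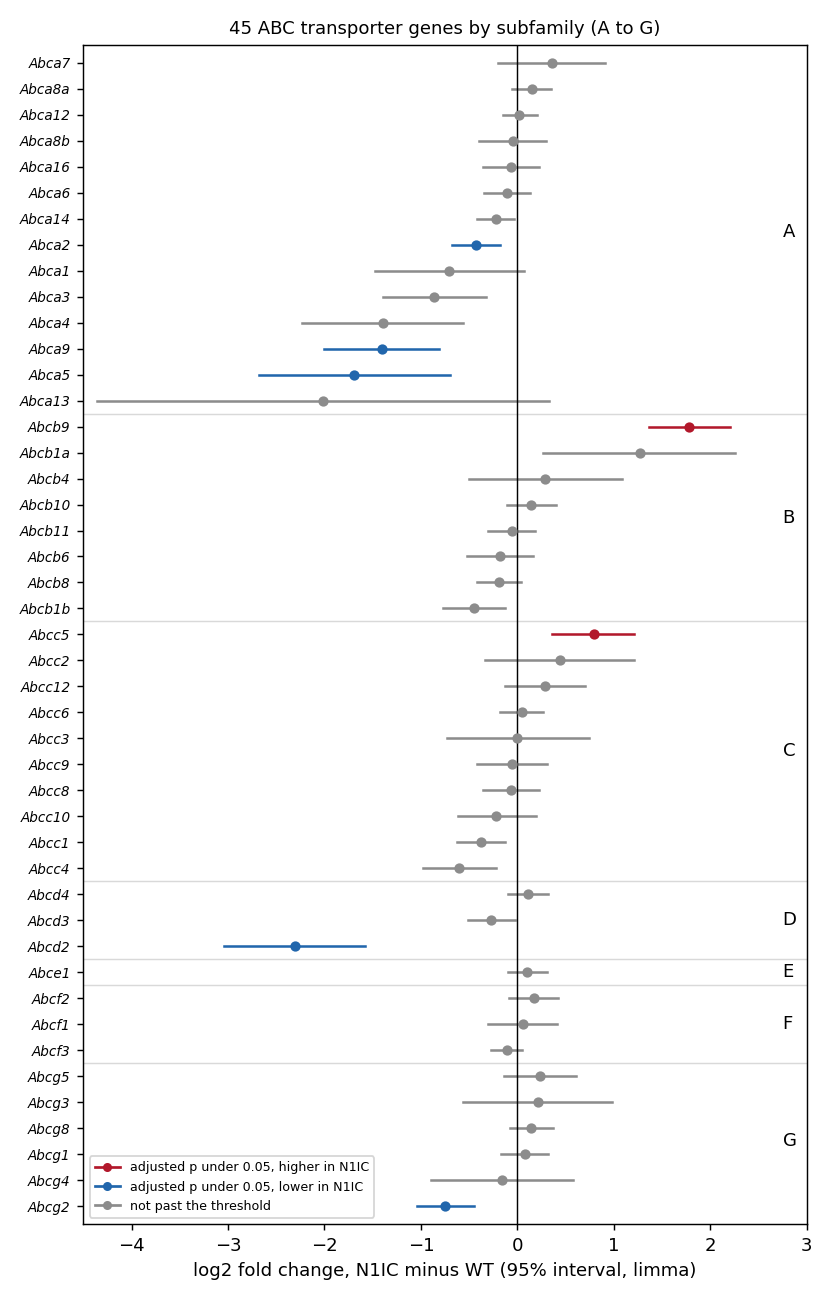
Log2 fold change (N1IC minus WT, horizontal axis) of each of the 45 members, grouped by subfamily from A at the top to G at the bottom. Lines are 95% intervals from limma, not adjusted for the number of genes. The 2 members higher in N1IC are red, the 5 lower are blue, and 11 of the 14 members of subfamily A lie left of 0. Over all genes tested, 9413 of 18193 had negative values.

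Abcg2, the Hoechst efflux pump, was 1.68-fold lower in N1IC cells. It stood at 11.07, 10.95 and 10.72 on the N1IC arrays, against 11.74, 11.51 and 11.73 on the WT arrays. The groups did not overlap, and the WT female, at 11.51, was the lowest of the WT mice. The log2 fold change was -0.75 ± 0.12 (SE, n = 3 per group), and limma gave a Benjamini-Hochberg adjusted p of 0.0159. Its call was lost with sex as a covariate (log2 fold change -0.60, adjusted p 0.16 by limma) and without WT replicate 3 (-0.71, 0.0592). In bulk samples such as these, fewer cells of a type and less RNA per cell cannot be told apart. Markers of stem cells moved the same way: 11 of 11 measured, among them Fgd5, Hlf and Mecom, passed the test as lower in N1IC. Their summed intensity was 2776 to 3049 in N1IC and 12159 to 18048 in WT. The lowest single reading of the stem cell markers was 4.45 (log2), and their part in the level of Abcg2 was not tested. Lower in N1IC were also 6 of 7 B lineage, 7 of 8 granulocyte and monocyte and 6 of 8 megakaryocyte markers. A fall was thus not particular to stem cell markers, while 9 of 10 T-lineage markers passed as higher.

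The P-glycoprotein genes did not pass the test, and their values lay in opposite directions. Abcb1a stood at 6.66, 7.40 and 7.39 in N1IC, against 6.0, 5.09 and 6.56 in WT. The N1IC arrays lay above the WT arrays, by as little as 0.1 between N1IC replicate 1 and WT replicate 3, and the log2 fold change was 1.27 ± 0.41 (SE, n = 3 per group; adjusted p 0.109 by limma). Abcb1b stood at 9.08, 9.37 and 9.52 in N1IC, against 9.86, 9.79 and 9.67 in WT. Here the N1IC arrays lay below, with a log2 fold change of -0.45 ± 0.13 (adjusted p 0.0873 by limma). Both probe sets of Abcb1a gave positive values, 1.27 and 1.23, and both of Abcb1b gave negative ones, -0.45 and -0.22. The log2 fold changes of the pair differed by 1.72. An exact two-sided permutation test over the arrays gave a p of 0.1, the smallest that 3 against 3 arrays allow. That p was fixed once both genes separated the groups in opposite directions, so no conclusion is drawn from it. Abcb4, which follows them directly among the protein-coding genes of chromosome 5 and exports phosphatidylcholine into bile, had values that overlapped between the groups, at 9.73 ± 0.54 in N1IC and 9.44 ± 0.40 in WT (SD, n = 3). How far each probe set tells Abcb1a from its close paralog Abcb1b was not tested.

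The promoters of these pumps are shown because the pair of neighbours differs in them. They are RefSeq windows of 300 bases (build GRCm38.p6), most of each lying before the annotated start and the last part after it, and the table holds one or more windows for 35 of the 45 members. Capitals mark a CCAAT box (CCAAT), a GC box (GGGCGG) or the core motif of RBPJ (TGGGAA), the DNA-binding partner of N1-IC, read on both strands, and each sequence runs 5′ to 3′ on the strand of its gene. Each motif was counted on its own, and where CCAAT lies on the other strand its last bases can be shared with TGGGAA.
Abcg2, chr6:58640296-58640595, plus strand: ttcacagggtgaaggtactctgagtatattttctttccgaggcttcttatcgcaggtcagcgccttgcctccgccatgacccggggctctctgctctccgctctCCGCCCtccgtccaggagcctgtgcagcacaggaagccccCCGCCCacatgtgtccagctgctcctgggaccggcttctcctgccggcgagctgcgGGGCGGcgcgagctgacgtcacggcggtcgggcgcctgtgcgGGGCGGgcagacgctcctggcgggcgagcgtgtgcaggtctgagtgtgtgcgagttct
Abcb1a, chr5:8566841-8567140, plus strand: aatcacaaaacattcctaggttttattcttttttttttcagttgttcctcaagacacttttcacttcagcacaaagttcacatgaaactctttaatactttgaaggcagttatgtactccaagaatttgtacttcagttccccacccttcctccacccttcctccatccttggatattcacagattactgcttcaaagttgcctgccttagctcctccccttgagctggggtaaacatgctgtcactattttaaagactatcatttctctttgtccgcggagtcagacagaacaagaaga
Abcb1b, chr5:8797897-8798196, plus strand: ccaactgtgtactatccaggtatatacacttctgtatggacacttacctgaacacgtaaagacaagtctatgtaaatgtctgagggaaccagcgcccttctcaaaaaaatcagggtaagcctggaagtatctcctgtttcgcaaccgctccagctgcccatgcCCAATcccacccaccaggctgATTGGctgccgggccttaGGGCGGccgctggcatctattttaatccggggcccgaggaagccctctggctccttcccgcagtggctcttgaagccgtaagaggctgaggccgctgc
Abcg2 has 3 such windows in RefSeq, and the one with the highest GC content, 67.0%, is printed. It holds 4 GC boxes, which a choice by GC content favours. The printed window has no CCAAT box, though another Abcg2 window holds one. The Abcb1a window has 40.3% GC, 2 CpG dinucleotides and none of the motifs. The Abcb1b window has 55.0% GC, 12 CpG dinucleotides, 2 CCAAT boxes and 1 GC box. Over all 32851 RefSeq promoter windows, 37.4% hold a CCAAT box, 35.7% a GC box and 25.6% the RBPJ core. Of the 42 windows of members, 35.7% hold a CCAAT box, 50% a GC box and 21.4% the RBPJ core.

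**Figure D2:**
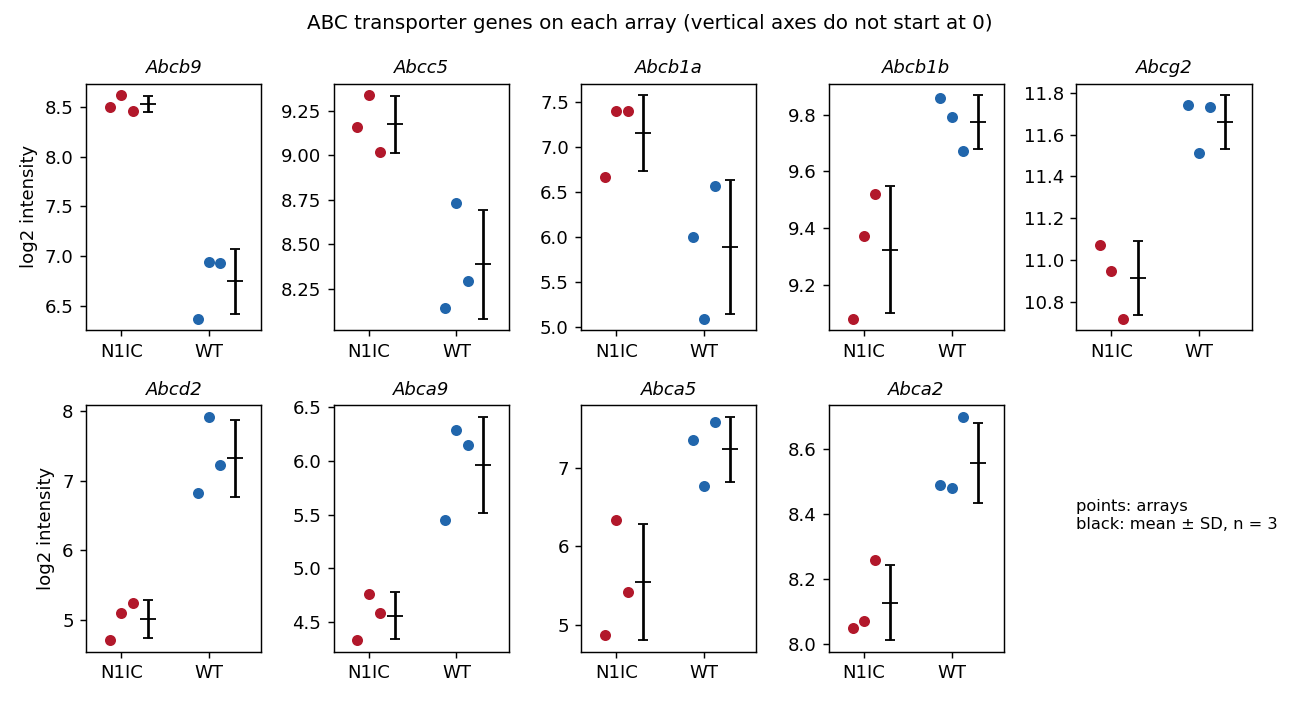
Log2 intensity (vertical axes, each with its own range) of the 7 members that passed the test and of Abcb1a and Abcb1b on the N1IC arrays (red, left) and the WT arrays (blue, right). Points run from replicate 1 to 3 and black bars are mean ± SD of 3 arrays. In all 9 genes the groups do not overlap, and Abcb9 and Abcd2 are the farthest apart.

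Abcb9, the lysosomal peptide carrier also called TAP-like, was 3.43-fold higher in N1IC, the largest rise in the family. It stood at 8.50, 8.62 and 8.46 in N1IC, against 6.37, 6.94 and 6.93 in WT. The N1IC arrays were tightly grouped and far above every WT array. The log2 fold change was 1.78 ± 0.17 (SE, n = 3 per group), and limma gave a Benjamini-Hochberg adjusted p of 0.00319. All 3 of its probe sets gave positive values, at log2 fold changes of 1.78, 0.59 and 1.57, and the first and the last passed when each probe set was tested on its own. Its call held in all 14 alternatives, with log2 fold changes between 1.31 and 1.88. Markers of T-lineage progenitors moved the same way, with 9 of 10 called higher and a summed intensity of 35069 to 41109 in N1IC and 2524 to 4935 in WT. The lowest single reading of those markers was 3.71 (log2), near the level of Y-linked genes on female arrays. Of the mast cell markers 2 of 9, and of the mature macrophage markers 2 of 10, also passed as higher and none as lower. The part of these markers in the level of Abcb9 was not tested.

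The peptide transporters of the antigen presentation pathway, Tap1 and Tap2, belong to subfamily B under names that the symbol form leaves out. Tap1 stood at 11.90, 11.92 and 11.88 in N1IC, against 12.00, 12.39 and 12.21 in WT (log2 fold change -0.30 ± 0.11; adjusted p 0.155 by limma). Tap2 stood at 10.83 ± 0.10 in N1IC and 10.68 ± 0.17 in WT (SD, n = 3), and its groups overlapped. Neither passed the test. Over all genes tested, 3.47% were higher and 8.31% lower. Among 9 genes that process or load peptides for MHC class I, 2 were higher and none was lower. Those were Tapbpl, a tapasin-related editor of MHC class I peptides, 1.55-fold, and Psmb10, an immunoproteasome subunit, 1.35-fold. The chloride channel gene Cftr, also outside the symbol form, lay between 3.26 and 3.40 in N1IC and between 3.64 and 4.32 in WT, near the level of Y-linked genes on female arrays (adjusted p 0.0673 by limma).

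Abcc5, an exporter of cyclic nucleotides and nucleotide analogs also called MRP5, was 1.72-fold higher in N1IC. It stood at 9.16, 9.34 and 9.02 in N1IC, against 8.14, 8.73 and 8.29 in WT. The groups did not overlap, and the WT female, at 8.73, was the WT array nearest to N1IC. The log2 fold change was 0.79 ± 0.18 (SE, n = 3 per group), and limma gave a Benjamini-Hochberg adjusted p of 0.0403. The gene has 10 probe sets, of which 5 gave positive and 5 negative values, from -0.40 to 0.79, and 2 passed, both upward. Averaged over its probe sets, the log2 fold change was 0.09 (adjusted p 0.558 by limma). With sex as a covariate it was 0.44 (0.269). The call was also lost without any 1 array other than WT replicate 2, at log2 fold changes of 0.66 to 0.86 and adjusted p of 0.0794 to 0.123 by limma.

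The promoters of the members that rose are shown beside those of the pumps, with the same motifs in capitals.
Abcb9, chr5:124095749-124096048, minus strand: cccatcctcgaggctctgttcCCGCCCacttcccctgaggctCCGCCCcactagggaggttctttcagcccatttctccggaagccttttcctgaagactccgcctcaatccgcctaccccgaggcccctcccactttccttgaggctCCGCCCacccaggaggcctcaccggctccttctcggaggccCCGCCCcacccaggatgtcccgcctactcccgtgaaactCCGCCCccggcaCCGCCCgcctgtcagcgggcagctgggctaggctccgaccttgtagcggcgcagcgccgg
Abcc5, chr16:20426345-20426644, minus strand: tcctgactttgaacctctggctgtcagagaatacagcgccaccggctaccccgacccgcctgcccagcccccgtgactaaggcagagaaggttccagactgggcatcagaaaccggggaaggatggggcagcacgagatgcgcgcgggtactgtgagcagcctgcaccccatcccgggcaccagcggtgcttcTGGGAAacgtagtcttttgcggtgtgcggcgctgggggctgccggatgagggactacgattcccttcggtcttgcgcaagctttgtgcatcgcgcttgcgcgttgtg
The Abcb9 window has 68.7% GC and 6 GC boxes, and no RBPJ core. The Abcc5 window has 63.0% GC and 1 RBPJ core, which begins at base -57 relative to the start and is the only one of the motifs in it. Abcc5 was the only called member with an RBPJ core in a RefSeq window, out of 6 called members that have one or more windows.

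The other anion exporters of subfamily C did not pass the test. Abcc1, or MRP1, which exports glutathione conjugates and leukotriene C4, stood at 11.18, 11.12 and 11.23 in N1IC, against 11.61, 11.38 and 11.67 in WT (log2 fold change -0.38 ± 0.10; adjusted p 0.0674 by limma). Abcc4, or MRP4, which exports cyclic nucleotides and prostanoids, stood at 10.01, 9.86 and 10.06 in N1IC, against 10.70, 10.76 and 10.25 in WT (-0.60 ± 0.15; 0.0612). In both the groups did not overlap, and the N1IC arrays were the lower ones. Abcc1 passed without WT replicate 2, at -0.47 (adjusted p 0.0436 by limma), and Abcc4 without WT replicate 3, at -0.76 (0.0223). Without WT replicate 2 all remaining WT mice are male, and with sex as a covariate Abcc1 was at -0.20 (adjusted p 0.457 by limma). Abcc3, or MRP3, had the same mean in both groups within its spread, at 6.61 ± 0.49 in N1IC and 6.60 ± 0.40 in WT (SD, n = 3). The remaining 6 members, Abcc2, Abcc6, Abcc8, Abcc9, Abcc10 and Abcc12, had log2 fold changes between -0.22 and 0.44. Abcc8 and Abcc9 encode sulfonylurea receptors, and neither they nor the channel genes Kcnj8 and Kcnj11 that complete the potassium channel passed. Over all genes tested, 8.31% were lower and 3.47% higher in N1IC. Of 15 genes that make or recycle glutathione or attach it to substrates, 4 were lower and none higher. They were the transferases Gstt1 by 3.78-fold, Mgst1 by 2.76-fold, Gstm1 by 2.09-fold and Gstk1 by 1.55-fold, while Gclc and Gclm, which make glutathione, lay at log2 fold changes of 0.20 and -0.06 and did not pass.

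Abcd2, which carries very long chain fatty acyl-CoA into peroxisomes, was 4.97-fold lower in N1IC, the largest fall in the family. It stood at 4.70, 5.09 and 5.24 in N1IC, against 6.82, 7.92 and 7.22 in WT. The groups lay far apart, with the WT female the highest array. The log2 fold change was -2.31 ± 0.30 (SE, n = 3 per group), and limma gave a Benjamini-Hochberg adjusted p of 0.00729. All 4 of its probe sets gave negative log2 fold changes, from -3.11 to -0.17, and the 3 brighter ones passed. On the probe set at -3.11 the N1IC mean, 3.29, lay within the range of Y-linked genes on female arrays. The call held in all 13 alternatives that could test it, the brighter 60% of genes being the one that left it out. The other peroxisomal member, Abcd3 or PMP70, stood at 10.99 ± 0.12 in N1IC and 11.26 ± 0.11 in WT (SD, n = 3; adjusted p 0.153 by limma). Abcd4, which moves cobalamin out of lysosomes, stood at 8.56 ± 0.09 in N1IC and 8.45 ± 0.08 in WT, with overlapping groups. Of 9 peroxisome genes measured, only Slc27a2, a very long chain acyl-CoA synthetase, passed, 2.43-fold higher, where 11.8% of all genes tested passed. Ehhadh, Hsd17b4, Acaa1a and Scp2, of peroxisomal beta-oxidation, lay between -0.16 and 0.30 and did not pass.

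In subfamily A, 11 of 14 members had negative and 3 positive log2 fold changes, with a median of -0.32. Over all genes, 9413 of 18193 were negative, with a median of -0.01. Among the negative members, Abca6, Abca8b, Abca14 and Abca16 stayed under 5 on every array, at only -0.22 to -0.05. Abca9 stood at 4.33, 4.76 and 4.59 in N1IC, against 5.45, 6.29 and 6.15 in WT, a 2.64-fold fall on a dim probe set. No N1IC array reached the lowest WT array. The log2 fold change was -1.40 ± 0.24 (SE, n = 3 per group; adjusted p 0.0189 by limma), and both of its probe sets passed when tested on their own. Abca5, a lysosomal lipid transporter, was 3.23-fold lower, at 4.87, 6.34 and 5.42 in N1IC against 7.36, 6.77 and 7.58 in WT. N1IC replicate 2, at 6.34, came close to the WT female, at 6.77, and the log2 fold change was -1.69 ± 0.40 (SE, n = 3 per group; adjusted p 0.049 by limma). Its second probe set was at -0.32, and averaged over both the log2 fold change was -1.01 (adjusted p 0.0672 by limma), which ended the call. Abca2, an endolysosomal lipid transporter best known from brain, was 1.35-fold lower, at 8.05, 8.07 and 8.26 in N1IC against 8.49, 8.48 and 8.70 in WT. Its adjusted p was 0.0483 by limma, so Abca2 and Abca5 passed by little. Abca9 lost its call without WT replicate 2, WT replicate 3, N1IC replicate 1 or N1IC replicate 3, at log2 fold changes of -1.24, -1.31, -1.29 and -1.42 (adjusted p 0.0512, 0.0679, 0.0681 and 0.0622 by limma). Abca5 lost its call without any 1 array other than N1IC replicate 2, at -1.36 to -1.93 (0.0669 to 0.144), and Abca2 without any 1 array, at -0.36 to -0.49 (0.0679 to 0.142). With sex as a covariate the log2 fold changes were -1.73, -1.22 and -0.36 for Abca9, Abca5 and Abca2, with adjusted p of 0.0703, 0.359 and 0.334 by limma.

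Abca9 and Abca5 belong to a run of 5 ABC genes that stand side by side on chromosome 11, in the order Abca8b, Abca8a, Abca9, Abca6 and Abca5. The other members of the run read low on every array, with N1IC means of 4.23 for Abca8b, 3.54 for Abca8a and 3.63 for Abca6, against WT means of 4.27, 3.39 and 3.74. Their groups overlapped, and their log2 fold changes lay between -0.11 and 0.15.

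Just outside the threshold lay Abca4 and Abca3, and both were lower on every N1IC array than on any WT array. Abca4, known as the retinoid flippase of photoreceptors, stood at 5.85, 6.45 and 6.69 in N1IC, against 7.41, 7.39 and 8.38 in WT (log2 fold change -1.39 ± 0.34; adjusted p 0.0524 by limma). It was named after its values were seen. Abca3, which loads lipids into the lamellar bodies of lung, stood at 10.51, 9.85 and 9.96 in N1IC, against 10.68, 11.18 and 11.05 in WT (-0.86 ± 0.22; 0.0567). It passed without N1IC replicate 1, at -1.07 (adjusted p 0.033 by limma). Of its 3 probe sets 2 gave negative values and 1, the dimmest, a positive one. The cholesterol exporter Abca1 stood at 8.63, 8.44 and 8.02 in N1IC, against 9.46, 8.40 and 9.35 in WT, where the female lay within the N1IC range (-0.71 ± 0.32; 0.226). Without that array, WT replicate 2, Abca1 passed, at -1.04 (adjusted p 0.0454 by limma), in a fit that sets females against males alone. With sex as a covariate it was at -0.04 (0.972). The phospholipid transporter Abca7 was the highest of the subfamily in fold change, 0.36 ± 0.23, and its groups overlapped. The remaining 6 members, Abca6, Abca8a, Abca8b, Abca12, Abca14 and Abca16, lay between -0.22 and 0.15.

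Abca13, a very large member named here after its values were seen, varied most among WT arrays. It stood at 4.36, 4.58 and 5.09 in N1IC, against 4.42, 8.22 and 7.43 in WT, so that WT replicate 1 read like the N1IC arrays. The log2 fold change was -2.02 ± 0.96 (SE, n = 3 per group; adjusted p 0.25 by limma), and without WT replicate 1 it was -3.15 (0.0066). Both of its probe sets showed this pattern. The granulocyte and monocyte markers, 7 of 8 of which passed as lower in N1IC, also had their lowest WT sum on WT replicate 1. Their summed intensity was 11030, 17073 and 21020 in N1IC, against 43037, 69618 and 60466 in WT. WT replicate 1 also had the lowest WT sum for B lineage, T-lineage, megakaryocyte, mast cell, macrophage and erythroid markers, so a low sum on this array was not particular to granulocytes and monocytes. The lowest single reading of the granulocyte and monocyte markers was 5.75 (log2), and their part in the level of Abca13 was not tested.

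**Figure D3:**
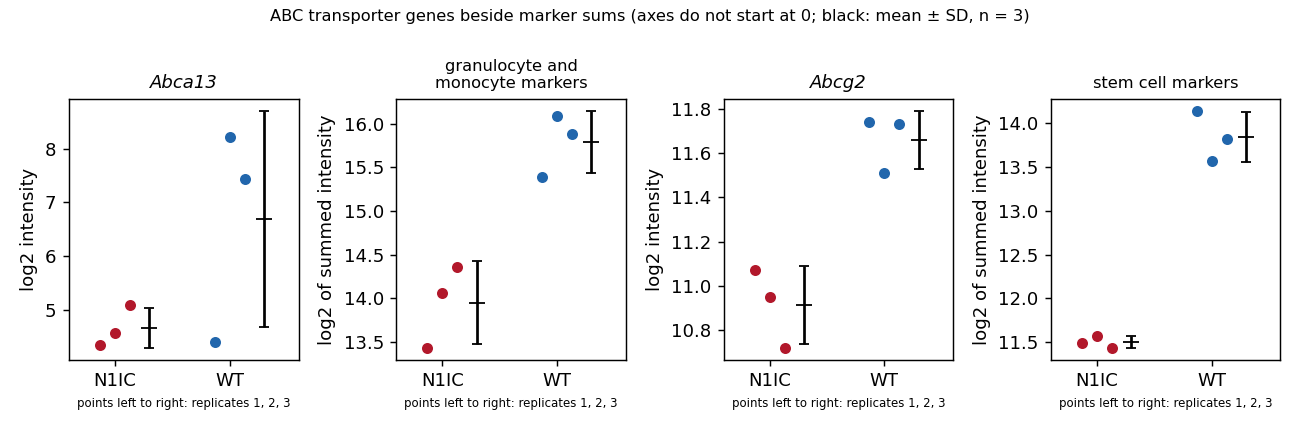
Abca13 and Abcg2 (log2 intensity) beside the summed intensity of granulocyte and monocyte markers and of stem cell markers (log2 of the sum), on N1IC arrays (red, left) and WT arrays (blue, right), with mean ± SD of 3 arrays. WT replicate 1, the leftmost blue point, is lowest among WT arrays for Abca13 (4.42) and for the granulocyte and monocyte sum, and highest for the stem cell sum. Most B lineage and megakaryocyte markers, not drawn, were also lower in N1IC.

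Genes that work with subfamilies A and G in lipid transport were measured as well. Among 12 measured regulators and partners of sterol efflux, Apoe, a lipid acceptor, was the only one to pass, 3.60-fold lower in N1IC, at 9.46, 8.32 and 9.08 against 10.84, 11.07 and 10.49 in WT. Srebf1 and Srebf2, transcription factors of lipid synthesis, lay at -0.46 ± 0.16 and -0.26 ± 0.07 (log2 fold change, SE, n = 3 per group) and did not pass. Abcg1, which moves sterols to high density lipoprotein, stood at 12.16, 12.20 and 12.11 in N1IC, against 12.25, 11.93 and 12.06 in WT, and the groups overlapped. Its 95% interval ran from -0.17 to 0.32 on the log2 scale. Abcg3, a gene known from rodents, stood at 9.20 ± 0.49 in N1IC and 8.99 ± 0.44 in WT (SD, n = 3), and Abcg4 at 6.47 ± 0.29 in N1IC and 6.63 ± 0.56 in WT. Abcg5 and Abcg8, the sterol exporters of gut and liver, had log2 fold changes of 0.23 and 0.14. None of these 5 passed, which left Abcg2 as the called member of subfamily G. Among 8 regulators of drug efflux genes, Ahr, the aryl hydrocarbon receptor, was the only one to pass, 3.49-fold higher. It stood at 10.83, 10.87 and 10.40 in N1IC, against 8.41, 9.08 and 9.20 in WT. The sterol and drug efflux lists, with 1 call each, stood near the 11.8% of all genes that passed.

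None of the mitochondrial and ribosomal members passed the test. Abcb10, a mitochondrial carrier needed for heme synthesis in red cell precursors, stood at 11.77 ± 0.13 in N1IC and 11.63 ± 0.12 in WT (SD, n = 3), with a 95% interval of the log2 fold change from -0.11 to 0.40. Abcb6 and Abcb8 lay at -0.18 ± 0.14 and -0.19 ± 0.09 (log2 fold change, SE, n = 3 per group). Among 8 genes of mitochondrial iron and heme handling, only Slc25a37, or mitoferrin 1, which is known to bind Abcb10, passed, 1.51-fold higher. This list also stood near the 11.8% of all genes that passed. Abce1, which splits ribosomes after termination, stood at 12.97 ± 0.04 in N1IC and 12.87 ± 0.10 in WT (SD, n = 3), with an interval from -0.10 to 0.31. Abcf1, which binds the initiation factor eIF2, had an interval from -0.30 to 0.41, Abcf2 one from -0.09 to 0.42, and Abcf3 one from -0.27 to 0.05. In Abcf3 the groups did not overlap, at 9.39, 9.40 and 9.40 in N1IC against 9.50, 9.50 and 9.53 in WT, a difference of 0.11. Of 7 partner genes in ribosome recycling and initiation, none passed. The bile salt exporter Abcb11 read between 4.10 and 4.34 on all arrays.

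**Figure D4:**
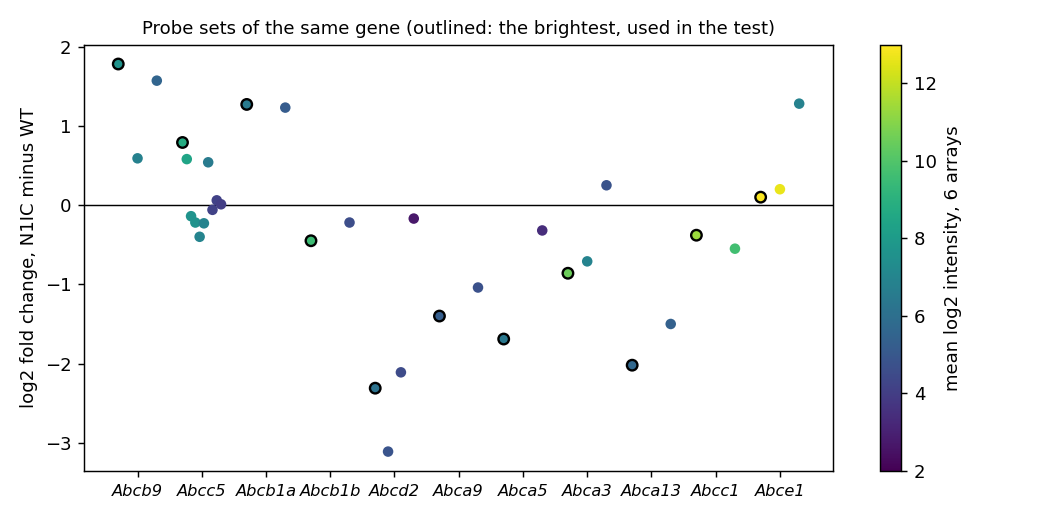
Log2 fold change (N1IC minus WT, vertical axis) of each probe set of 11 members, ordered from brightest to dimmest within a gene and coloured by mean log2 intensity over the 6 arrays. The outlined probe set is the one tested. Those of Abcb9, Abcb1a, Abcb1b, Abcd2, Abca9, Abca5, Abca13, Abcc1 and Abce1 keep 1 sign, while those of Abcc5 split 5 and 5 and those of Abca3 split 1 and 2.

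The family was covered by 92 probe sets, and 26 members had more than 1. In 16 of these 26 all probe sets had the same sign of fold change, and in 10 the signs were mixed. The dimmest probe set of Abce1 gave a log2 fold change of 1.28, against 0.10 and 0.20 on the brighter ones, and did not pass. On Abcc1 the dimmer probe set passed on its own, at -0.55 (adjusted p 0.0493 over all probe sets by limma), where the brightest did not. The probe sets of a gene can read different transcripts, and which transcript each reads was not tested.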

How the data were processed

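Arrays, 1 per mouse, measured RNA of LSK cells from 3 N1IC and 3 WT mice. Per the labels' protocols, RNA went through Nugen Ovation amplification and biotin labelling. The deposited table holds 1 linear intensity per probe set and array, which per the submitters' processing notes came from RMA. Which RMA version or options were used is not given in the sources used here.

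Values were converted to log2. Of 45101 probe sets, 34945 had 1 gene symbol, 932 several and 9160 none, beside 64 controls. RefSeq (GRCm38.p6) supplied current symbols for 34741 probe sets by gene ID, and the brightest probe set stood for each of 18193 genes. The N1IC minus WT difference was tested with limma 3.58.1 (R 4.3.3, two-sided, without covariates), p-values were adjusted by Benjamini-Hochberg across all genes, and 0.05 was the threshold. Residual and prior degrees of freedom were 4 and 2.05. On simulated data with 200 of 18193 genes changed, it recovered 66% of log2 changes of 1 and 89% of those of 2, and called 6 unchanged genes. In the real comparison 2144 genes were called. The simulation had independent noise and no effect of sex, so its rates need not hold for these data. Plots used matplotlib 3.10.9.

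Some genes of the symbol form were not analysed here. The members and lists were chosen with earlier results of these data known. The text names Abcg2, Abcb1a, Abcb1b, every called member, up to 3 of the brightest uncalled members per subfamily, Tap1, Tap2 and Cftr, and up to 4 called genes per partner list. Members beyond these are mostly given by range. Outside that rule, Abcb6, Abcb8, Abcb11, Abcg5, Abcg8, Abca6, Abca8a and Abca8b also have a log2 fold change, group means or an array range of their own. Abca13, Abca4 and the partner genes named without a call were added after their values were seen. Alternatives were a block for the replicate number, a covariate for sex, repeated quantile normalization, median centring, the brighter 60% of genes, the mean of probe sets, each probe set tested, an intensity trend, and leaving out each array. No batch is given in the labels. Replicates are separate mice per the labels, and what the letter b after the numbers of WT replicates 1 and 2 means is not stated. Correlations of array pairs were 0.99 to 0.992 within N1IC, 0.985 to 0.989 within WT and 0.968 to 0.975 between them, and the number of arrays limits the precision.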

Additional observations from a re-analysis of the deposited data

How the results depend on the processing

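Of the called members, Abcb9 and Abcd2 kept their call in every alternative that tested them, Abcg2 in 11 of 14, Abca9 in 8 of 13, Abcc5 in 7 of 14, Abca5 in 2 of 13 and Abca2 in 2 of 14, and none changed direction. The number of members higher in N1IC was 2, and it was 1 with sex as a covariate and with the mean of all probe sets. The number lower was 5, and it was 8 with the intensity trend, 3 with the replicate block, repeated quantile normalization, median centring or each probe set tested, and 1 with sex as a covariate. With 1 array left out, 1 to 2 members were higher and 2 to 4 lower. Over all genes, 632 were higher and 1512 lower, against 357 and 936 with the replicate block and 116 and 333 with sex as a covariate. With 1 array left out these counts were 332 to 509 and 835 to 1420, in fits with fewer samples. Because the N1IC group has no male and the WT group has 1 female (replicate 2), the fit with sex sets N1IC against that array alone. Same-numbered arrays deviated from their group means with correlations of -0.09, -0.069 and 0.07, so the numbers were not taken as pairs. Other members gained calls. Abca3, Abca4, Abcc1 and Abcc4 passed with the intensity trend and with the brighter 60% of genes, and Abca4 and Abcc1 also with the mean of all probe sets. Abca4 passed with the replicate block, under which Abcg2 had an adjusted p of 0.052 by limma and lost its call, as did Abca5 and Abca2. With 1 array left out, Abca13 passed without WT replicate 1 and Abca1 without WT replicate 2, though neither was near the threshold with all arrays (adjusted p 0.25 and 0.226 by limma). The cause of these shifts was not tested. Signs turned in some members that never passed. Abcb4 was at -0.052 and Abcc3 at -0.18 with sex as a covariate. With 1 array left out, Abcb4 ranged from -0.00046 to 0.54, Abcc3 from -0.25 to 0.23, Abcf1 from -0.034 to 0.18, Abcg3 from -0.026 to 0.47 and Abcg4 from -0.38 to 0.16. Signs also turned for Abca8b, Abca12, Abca16, Abcb11, Abcc6, Abcc8 and Abcc9, whose turned values lay between -0.05 and 0.12. The brighter 60% of genes held 26 of the 45 members. The median log2 fold change of the members lay between -0.11 and -0.003 in all alternatives. No signal over background could be computed.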
